A study of Mus musculus with 3 samples.

Results

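Retinoic acid is made from vitamin A (retinol) and acts inside the cell. Retinol enters from its carrier in blood, in some tissues through the membrane receptor Stra6, and is oxidised in steps to retinoic acid. The cytoplasmic proteins Crabp1 and Crabp2 bind retinoic acid, and the enzyme Cyp26a1 breaks it down. In the nucleus it binds the retinoic acid receptors Rara, Rarb and Rarg, which pair with retinoid X receptors such as Rxra and Rxrb and sit on DNA at direct repeats of a short half-site. In embryonic stem (ES) cells, added retinoic acid is a widely used trigger of differentiation.

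These 9 genes were followed in mouse ES cells with a conditional knockout allele of Pou5f1, which encodes the transcription factor Oct3/4. Every array came from cells with this allele: 1 array at day 0, 1 at day 1 and 1 at day 2. The labels do not say how the knockout was started. Since all later arrays were knockout arrays, losing Oct3/4, time in culture and any inducing agent cannot be told apart. The members were all 12 probe sets that the array annotation assigns to 1 of the 9 genes alone, of 45037 probe sets with a value on every array. A probe set is a set of short probes for 1 transcript, and its value is an array signal with no fixed unit.

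A constant of 55.9 was added to each signal before log2 was taken, so differences of dim probe sets are understated. Probe sets with a mean signal under the constant were not called measured. Of the 12 probe sets 10 passed, and they measured 8 of the 9 genes, among 12717 measured genes in all. Rarb did not pass, nor did 1 of the 3 probe sets of Rxra. Day 1 and day 2 differences are against day 0 unless another array is named. A gene with several kept probe sets is given by the one with the highest mean signal. Genes were called by size, at 2-fold or more, and there is no test and no replicate error. The pooled SD between probe sets of the same gene was 0.30 log2 units at day 1, 0.34 at day 2 and 0.30 between day 2 and day 1, which covers probe error only.

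The labelled cells and the knockout were checked first. The signal of Pou5f1 was 2400 at day 0, 40.8 at day 1, then 15.5 at day 2. Whether its probe set lies within the deleted part is not known. All 12 ES cell marker genes were measured, and all 12 were at least 2-fold lower at day 2 than at day 0, with sums of 125952, 76317 and 27180 at day 0, day 1 and day 2. Of 11 measured trophectoderm markers 10 were at least 2-fold higher at day 2, with sums of 11493, 17028 and 62747 at day 0, day 1 and day 2. Of 12 markers of fibroblasts, the usual feeder cells, 9 were below the constant on average, Col1a1 and Col3a1 among them. The signal summed over all 12 was 781.6, 790.2 and 577.8 in the order of the days. Thy1 alone gave 399.8, 274.6 and 89.3 of these sums. In bulk RNA, fewer cells of a type and less RNA per cell cannot be told apart.

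Rarb and Cyp26a1 are known for control by retinoic acid itself, through a direct repeat whose half-sites stand 5 bases apart. Their promoters are shown because that element can be read in both. Each run is the 250 bases before the transcript start from RefSeq (GRCm38.p6), on the strand of the gene, with the repeat in capitals.
Rarb, chr14:16575477-16575726, minus strand: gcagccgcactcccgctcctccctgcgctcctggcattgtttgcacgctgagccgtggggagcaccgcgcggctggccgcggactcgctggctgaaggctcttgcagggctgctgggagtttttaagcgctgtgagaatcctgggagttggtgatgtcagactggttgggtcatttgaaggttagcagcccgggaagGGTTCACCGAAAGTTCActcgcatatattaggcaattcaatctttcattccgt
Cyp26a1, chr19:37697558-37697807, plus strand: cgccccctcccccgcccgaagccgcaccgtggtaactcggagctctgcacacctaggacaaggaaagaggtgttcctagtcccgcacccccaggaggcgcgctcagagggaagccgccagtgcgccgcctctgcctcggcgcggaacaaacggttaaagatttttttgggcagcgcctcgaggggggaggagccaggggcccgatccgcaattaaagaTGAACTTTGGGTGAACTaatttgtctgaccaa

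The Rarb repeat, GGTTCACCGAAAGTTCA, lies 53 to 37 bases before the start. The Cyp26a1 repeat lies 32 to 16 bases before the start and reads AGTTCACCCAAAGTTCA on the opposite strand. The search used the ideal half-site AGGTCA and its close relatives, which are GGGTCA and the forms with a double T, namely AGTTCA as well as GGTTCA. Any pair of these in the same direction with 5 bases between them was counted, on both strands. It matched in 29 of 32851 promoter windows of the same length, or 0.0883%. Among the members, 17 windows of 8 genes could be searched, and these were the only 2 with a match. Both genes were known for this repeat, and the half-sites searched include those of both, so these 2 matches are no independent evidence. Crabp2 was not searched. Repeats with 1 or 2 bases between the half-sites matched in 0 of the 17 windows, against 0.164% and 0.174% of all windows. The octamer ATGCAAAT, a site that Oct3/4 can bind, also matched in 0 of the 17, against 1.60% of all windows. A match is only these letters in this window, and no match says nothing of sites elsewhere.

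**Figure D1:**
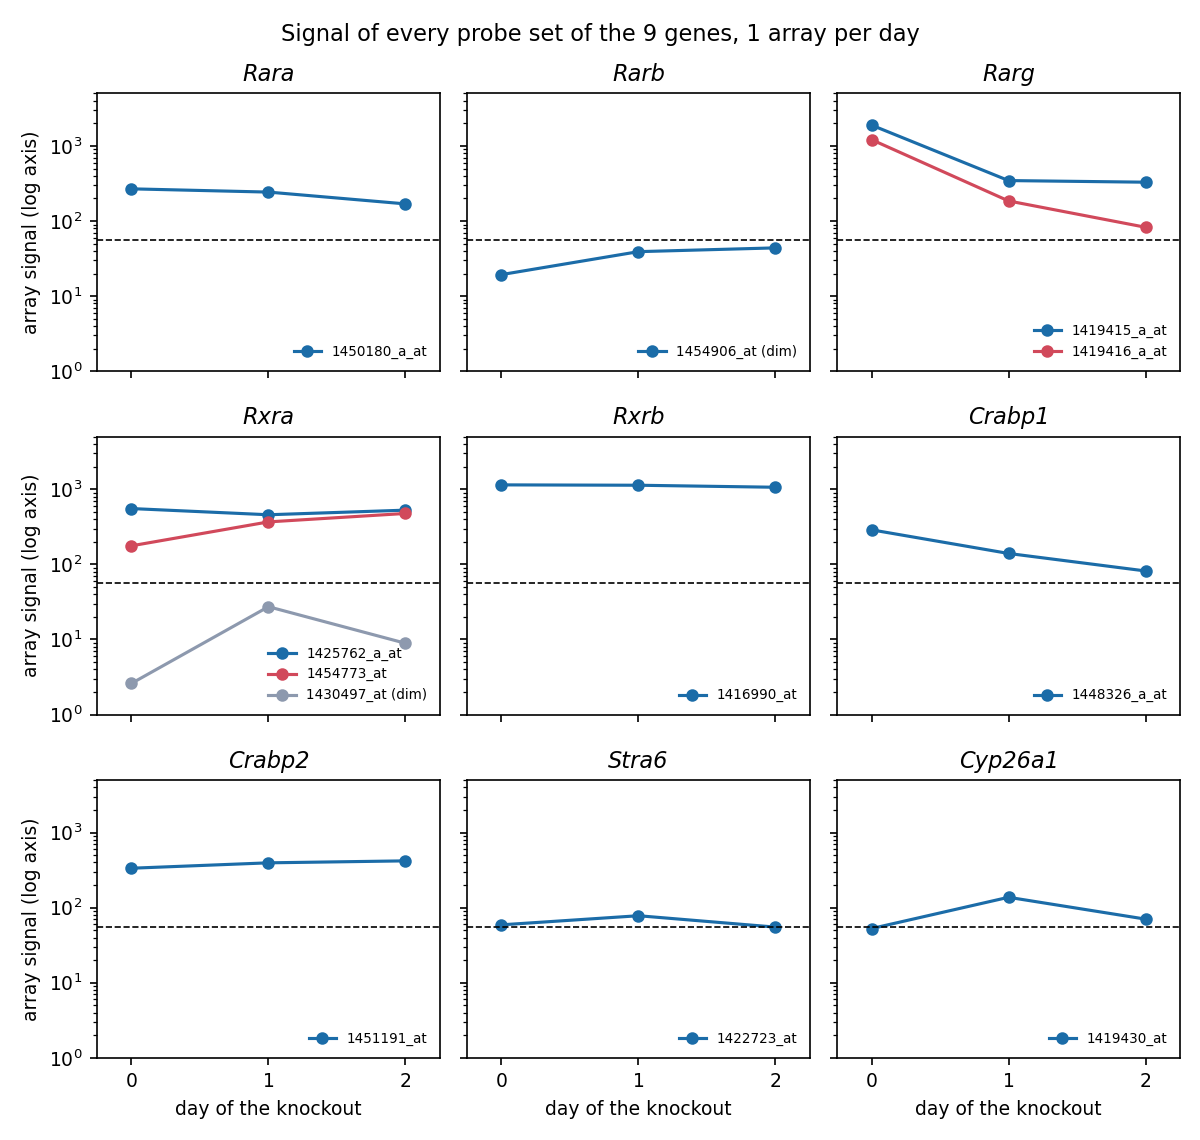
Array signal on a log axis at day 0, day 1 and day 2 for every probe set of the 9 genes, 1 array per day; the dashed line is the added constant of 55.9. Both probe sets of Rarg lie far lower at day 1 and day 2 than at day 0, Crabp1 lies lower at each later day, Cyp26a1 is highest at day 1, and the 2 brighter probe sets of Rxra take different courses.

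Among the 3 retinoic acid receptors, the gene that moved past the size rule was Rarg, the main retinoic acid receptor of skin and cartilage and one that mouse ES cells express. Its probe set 1419415_a_at gave 1897 at day 0, 346.5 at day 1 and 329.7 at day 2. Its other probe set, 1419416_a_at, gave 1215, 185.6 and 82.8 at day 0, day 1 and day 2. Day 0 was high and both later days were low with each probe set.

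On the log2 scale the first probe set was lower by −2.28 at day 1 and by −2.34 at day 2, which is 5.07-fold at day 2. The second gave −2.40 at day 1 and −3.20 at day 2, or 9.16-fold. Their gap at day 1 was 0.12, under the probe-set SD of 0.30, so they gave the same size for the first step. For day 2 against day 1 they gave −0.06 and −0.80, and the gap of 0.74 was larger than that SD, so whether Rarg was lower still at day 2 than at day 1 depends on the probe set. Of the 12717 measured genes 33 were lower than Rarg at day 1 and 105 at day 2.

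Rarg has 2 annotated starts in the promoter table, which give transcripts with different first exons. Their 250 bases are shown because both probe sets end in _a_at, the array maker's mark for probes shared by several transcripts of 1 gene, and which start gave the signal is therefore unknown. Capitals mark GC boxes (GGGCGG on either strand), sites of the widely expressed factor Sp1.
Rarg upstream start, chr15:102257523-102257772, minus strand: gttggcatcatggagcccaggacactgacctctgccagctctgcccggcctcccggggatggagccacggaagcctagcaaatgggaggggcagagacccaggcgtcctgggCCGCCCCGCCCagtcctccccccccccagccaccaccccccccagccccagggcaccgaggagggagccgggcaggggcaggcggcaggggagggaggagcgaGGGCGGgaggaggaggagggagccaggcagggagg
Rarg downstream start, chr15:102246501-102246750, minus strand: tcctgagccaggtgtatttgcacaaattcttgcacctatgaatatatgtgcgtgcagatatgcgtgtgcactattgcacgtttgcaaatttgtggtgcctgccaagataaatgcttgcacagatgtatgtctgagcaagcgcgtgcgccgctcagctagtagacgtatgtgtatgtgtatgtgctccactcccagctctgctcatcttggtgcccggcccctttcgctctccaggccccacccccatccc

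The upstream window holds 3 GC boxes, 2 of which overlap, and has a GC content of 74.4%. The downstream window holds none and has a GC content of 52.4%. GC boxes are common, in 32.7% of all promoter windows.

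Rara, the most widely expressed of the 3 receptors, had signals of 268.9, 243.4 and 169.5 at day 0, day 1 and day 2. It was at −0.12 at day 1 and −0.53 at day 2, within 2-fold, and 13.4% of measured genes were lower at day 2. Rarb, which retinoic acid itself induces in many cells, had signals of 19.4, 39.2 and 44.0 in the order of the days. All 3 values lie below the constant, only 34.8% of probe sets were dimmer at day 2 and 21.2% at day 0, and no fold is given. Of the receptors, then, Rarb was near background on every array and Rara stayed within 2-fold.

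The retinoid X receptors are the shared partners of many nuclear receptors. Rxrb gave 1144 at day 0, 1131 at day 1 and 1063 at day 2, with differences of −0.02 at day 1 and −0.10 at day 2. Both are under the probe-set SD. Rxra had 3 probe sets that did not agree. The brightest, 1425762_a_at, gave 553.5, 457.6 and 526.9 at day 0, day 1 and day 2, a difference of −0.06 at day 2. The next, 1454773_at, gave 176.6, 367.7 and 476.3 in the same order, and was at 0.87 at day 1 and 1.19 at day 2, which is 2.29-fold higher at day 2. The gap between them was 1.26 at day 2, or 3.66 times the probe-set SD, so the direction for Rxra depends on the probe set. The third, 1430497_at, was dim on every array, at 2.6, 27.3 and 8.9.

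The carriers of retinoic acid in the cytoplasm took different courses. Crabp1, which binds retinoic acid tightly and is linked to its breakdown, had signals of 288.3, 139.7 and 81.7 in the order of the days. Each later array was dimmer than the one before. It was at −0.82 at day 1 and −1.32 at day 2, which is 2.50-fold lower at day 2, and for day 2 against day 1 it was at −0.51. Crabp2, which hands retinoic acid to the receptors in the nucleus, had signals of 334.6, 394.8 and 419.4 in the order of the days. Its differences of 0.21 at day 1 and 0.28 at day 2 are smaller than the probe-set SD. Each of these genes has 1 probe set, so no second probe set is at hand for either value.

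Stra6, the membrane receptor that takes up retinol, was close to the constant throughout, with 59.0, 78.0 and 55.0 at day 0, day 1 and day 2. It was at 0.22 at day 1 and −0.05 at day 2. Cyp26a1, the enzyme that clears retinoic acid, gave 52.6, 137.3 and 70.3 at day 0, day 1 and day 2. Day 1 was the high array, and day 0 lay just under the constant. The differences were 0.83 at day 1 and −0.61 between day 2 and day 1, each over 2 times the probe-set SD and within 2-fold. That SD comes from genes with several kept probe sets, and Cyp26a1 has 1, so the error of its own values is unknown. At day 1, 517 of 12717 measured genes were higher than Cyp26a1. With a smaller constant, halved or set to 16, the day 1 difference passed 2-fold, at 1.04 and 1.16. Day 2 was only 0.22 above day 0.

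In numbers, Rarg and Crabp1, 2 of the 8 measured members, were lower by 2-fold or more at day 2, where 5.65% of all measured genes were. None was at least 2-fold higher, where 5.25% of all genes were. Rxra counts here by its brightest probe set, and its other kept one, 1454773_at, was at 1.19. At day 1, 1 of 8, Rarg, was at least 2-fold lower and 0 were higher, against 2.59% and 2.4% of all genes. Scaling by the median of ribosomal protein genes moved the median of all genes by −0.15 at day 1. The shares of all genes were then 3.61% lower and 1.46% higher, and the members' counts stayed at 1 and 0. For day 2 against day 1, 0 of 8 passed in either direction, against 2.65% lower and 2.09% higher of all genes. The median over the members was −0.08 at day 2 and −0.07 at day 1, beside 0.05 and 0.04 over all measured genes. The members were chosen with earlier results of these arrays known, so the counts describe these genes and nothing wider.

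**Figure D2:**
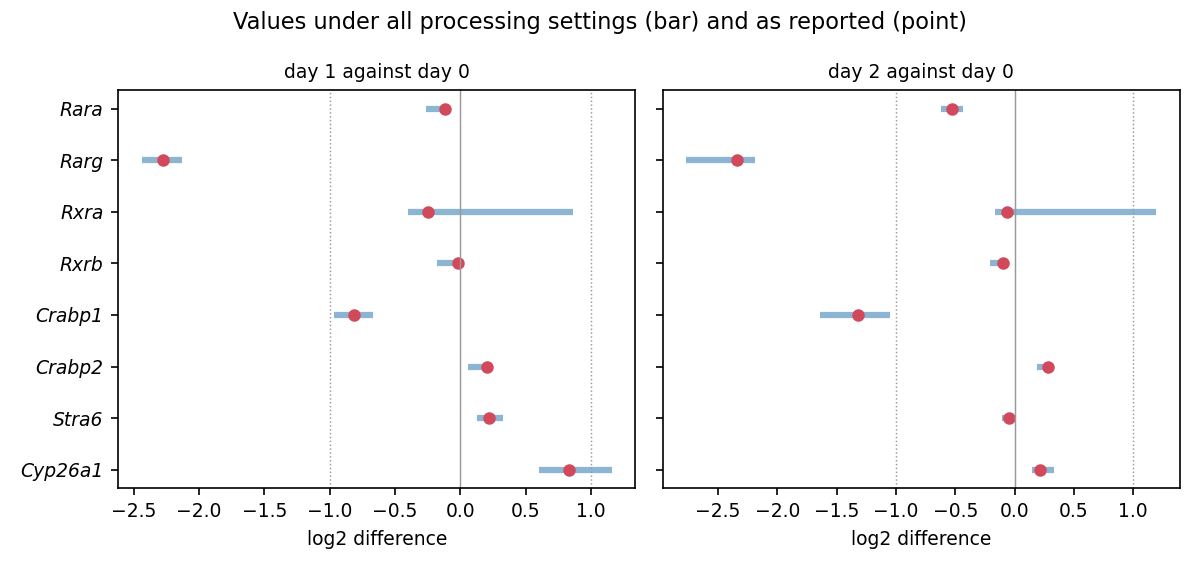
Log2 difference of the 8 measured members for day 1 against day 0 (left) and day 2 against day 0 (right); the point is the reported value, the bar its range over all settings of constant, scaling, filter and probe set choice that measured the gene, and dotted lines mark 2-fold. The bars of Rarg stay beyond 2-fold on both days and that of Crabp1 at day 2, while the bar of Rxra runs from −0.17 to 1.19 at day 2.

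**Figure D3:**
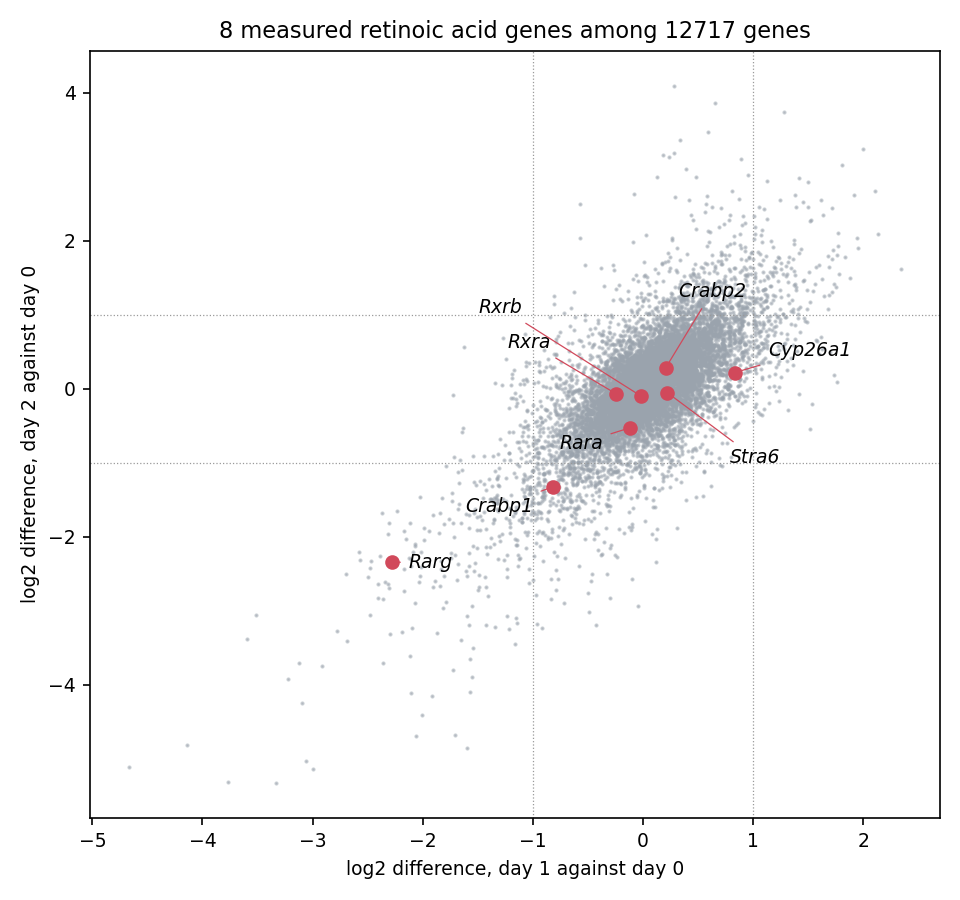
Log2 difference for day 2 against day 0 (vertical) and day 1 against day 0 (horizontal) of 12717 measured genes, grey, and of the 8 measured members, red; dotted lines mark 2-fold. Rarg (−2.28 at day 1, −2.34 at day 2) lies in the sparse lower left, Crabp1 passes 2-fold at day 2, Cyp26a1 (0.83 at day 1) is displaced to the right, and the others lie in the dense centre.

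The genes with the course most like that of Rarg were Cdyl2 and Slc47a1, by the straight-line distance between pairs of log2 differences (day 1 and day 2, each against day 0) over the 3 arrays. Cdyl2, which encodes a chromodomain protein, had signals of 2686, 468.2 and 516.6 at day 0, day 1 and day 2, and lay 0.13 log2 units away. Slc47a1, an exporter of organic cations, had 505.4, 68.8 and 47.6, at a distance of 0.15. Only 8 genes lay within 0.25 of Rarg. These distances are from its probe set 1419415_a_at. The other, 1419416_a_at, was at −2.40 at day 1 and −3.20 at day 2, and distances from it were not computed. The nearest to Crabp1 were the mitochondrial creatine kinase gene Ckmt1 (distance 0.02) and the phosphatase gene Inpp5d (0.03), and 119 genes lay within 0.25. Pairs of differences from 3 arrays share the day 0 array, and their likeness is a description.

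Genes in and around the pathway were read from 8 lists, which together hold 71 measured genes other than the members. The lists include orphan receptors and the coactivators and corepressors of nuclear receptors. The shares below are therefore not shares of the retinoic acid pathway alone. At day 2, 12 of the 71 (16.9%) were higher by 2-fold or more, and 6 (8.45%) were lower by as much, beside 5.25% higher and 5.65% lower of all measured genes. Their median was 0.30, beside 0.05 over all. Of the 12 higher genes 4 had a day 0 signal below the constant and were measured through their later signals. The share of higher genes therefore depends in part on the filter. Without the filter 12 of 101 were at least 2-fold higher and 7 lower, with a median of 0.21, beside 4.05% and 4.30% of all genes. With another kept probe set the day 2 call changed for 10 of the 71, of which 7 were within 2-fold as given here and 3 past it. For the supply of retinol and retinoic acid, 1 of 4 measured genes of retinol uptake, binding and storage was at least 2-fold higher at day 2, the lipoprotein lipase gene Lpl (430.8, 503.5 and 1535 at day 0, day 1 and day 2, difference 1.71 at day 2). The retinol binding protein genes Rbp4 (−0.12), Rbp7 (−0.31) and Rbp3 (0.58) stayed within 2-fold, and Lrat, which stores retinol as esters, was below the constant on every array.

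Of 12 measured genes of retinoic acid synthesis and its control, 2 were at least 2-fold higher at day 2 and 0 lower, with a median of 0.42. Over all measured genes these values were 5.25%, 5.65% and 0.05. The alcohol dehydrogenase gene Adh1, whose product can oxidise retinol, had signals of 74.4, 184.1 and 444.8 at day 0, day 1 and day 2, a difference of 1.94 at day 2. Bco1, which cleaves beta-carotene to retinal, gave 5.5, 98.5 and 80.8 and a difference of 1.15, with a day 0 value below the constant. It passed the filter through its day 1 and day 2 signals, so nothing is read from the count of 2. Next in size were the retinol dehydrogenase genes Rdh12 (0.69) and Rdh11 (0.53). The retinal dehydrogenases that make retinoic acid in the embryo were dim: Aldh1a2 was at 64.3, 45.5 and 76.6 in the order of the days, and Aldh1a1 and Aldh1a3 were below the constant on average.

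Fatty acid binding proteins can carry related ligands, and Fabp5 can carry retinoic acid to the receptor Ppard. Fabp3 was among the brighter genes, with signals of 6761, 19550 and 33160 at day 0, day 1 and day 2, and a difference of 2.28 at day 2 (1.24 with its other kept probe set). Fabp5 had 5628, 13234 and 11199 in the same order, which is 1.23 at day 1 and 0.99 at day 2. Both were thus at least 2-fold higher at day 1, though the other probe set of Fabp3 gave 0.91 there. At day 2 Fabp3 was at least 2-fold higher with either probe set, while Fabp5 lay on either side of 2-fold (1.03 with its other one). Cyp26b1, the relative of Cyp26a1, had signals of 17.9, 17.3 and 59.6 in the order of the days, with a mean below the constant.

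Among 9 measured partners of the retinoid X receptors, 3 were at least 2-fold higher at day 2 and 1 lower. Of the 3, Pparg and Vdr were above the constant on the day 2 array alone and passed the filter through it, so nothing is read from this count. Pparg, the receptor of fat cells and placenta, had signals of 7.8, 4.4 and 337.4 at day 0, day 1 and day 2, and its difference was 2.63 at day 2. Ppard was at 249.0, 259.4 and 687.1 (1.28 at day 2), and the vitamin D receptor gene Vdr at 34.6, 42.2 and 190.5 (1.44, or 0.55 with its other kept probe set). The thyroid hormone receptor gene Thra was at 0.45, and at 1.40 with another of its 3 kept probe sets. Nr4a1, an orphan receptor and early response gene, was at −1.44. All 4 past 2-fold at day 2 were within it at day 1, where 0 of the 9 passed in either direction. Of all measured genes 2.4% were higher and 2.59% lower there. The third retinoid X receptor gene, Rxrg, had signals of 89.0, 15.1 and 15.4 in the order of the days, with a mean below the constant.

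The list of orphan receptors included the largest difference of the 8 lists, that of Nr0b1. Of 10 measured genes 3 were at least 2-fold lower at day 2, where 5.65% of all measured genes were. These were Nr0b1 (−5.31), Esrrb (−3.44) and Nr5a2 (−2.06), all known as factors of the pluripotent state. As for higher genes, 1 passed, Nr2f2 (1.28), where 5.25% of all did. Nr2f2 had signals of 16.7, 100.2 and 120.5 at day 0, day 1 and day 2. It passed the filter through its later signals, so nothing is read from this 1 gene. Other kept probe sets gave −1.03 for Esrrb and −0.85 for Nr5a2, and Nr2f6 was at 0.94 or, with its other one, 1.25. Coregulators bind the receptors and carry or recruit enzymes that act on chromatin. Of 12 coactivator genes 1 was at least 2-fold lower, the acetyltransferase gene Kat2b (−1.55, and −0.39 with another of its 3 kept probe sets). Of 9 measured corepressor genes 1 was lower, Mecom (−1.33), while 0 in either list were higher. Over all measured genes 5.65% were lower and 5.25% higher, so in lists this short nothing is read from counts of 1. Next in size were Nsd1 (−0.88), Ncoa1 (−0.70) and Ncoa2 (0.56) among coactivators, and Nrip1 (0.90), Tbl1x (0.66) and Lcor (0.40) among corepressors. Other kept probe sets passed 2-fold for Ncoa1 (−1.37), Nrip1 (1.41) and Tbl1xr1 (−1.03, against 0.06 with its brightest).

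Of 28 genes with a probe set that are known to be induced by retinoic acid in other settings, 14 were measured. The members Rarb and Cyp26a1, also induced by it, are not in this list. Cyp26a1 was at 0.22 at day 2 and Rarb was not measured. At day 2, 4 of the 14 were at least 2-fold higher than at day 0 and 0 lower, with a median of 0.73, beside 5.25%, 5.65% and 0.05 over all measured genes. These were the basement membrane collagen gene Col4a1 (1.89), the transglutaminase gene Tgm2 (1.62), the endoderm factor Gata6 (1.46) and the ephrin gene Efnb1 (1.34). The laminin gene Lamb1 was at 0.94, and at 1.42 with another of its 3 kept probe sets. Col4a1 and Gata6 are also in the primitive endoderm marker list, of which 8 of 12 genes were measured. At day 2, 3 of these were at least 2-fold higher and 1 lower, with sums over the list of 2471, 4676 and 5791 at day 0, day 1 and day 2. The lower one was the laminin gene Lama1, with 708.8, 329.2 and 186.3 in the order of the days (−1.66 at day 2). Col4a1 alone gave 1060.6, 2971.5 and 4072.5 of the list sums. The third higher gene, Dab2, was at 1.33, and at 0.36 with another of its 3 kept probe sets. The other measured markers stayed within 2-fold, Gata4 (−0.43) and Sox17 (−0.27) below 0 and Pdgfra (0.23) and Hnf4a (0.31) above. Sox7, Afp and Ttr were below the constant on every array, and Foxa2 (6.7, 29.1 and 86.5 at day 0, day 1 and day 2) was below it on average and above it at day 2. The part of such cells in the result was not tested. The other 14 genes induced by retinoic acid had a mean signal below the constant. At day 2 these ran from −0.64 (Foxa1) to 0.76 (Hoxb4), all within 2-fold. The count of 4 of 14 and the median of 0.73 therefore hold for the measured genes only. Among them are Hoxb1, Hoxa2, Cdx1 and Dhrs3, which respond early to retinoic acid in embryos or ES cells. Hoxb1 and Hoxa2 were below the constant on every array, Cdx1 was above it at day 2 (74.0) and Dhrs3 at day 1 (75.9).

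**Figure D4:**
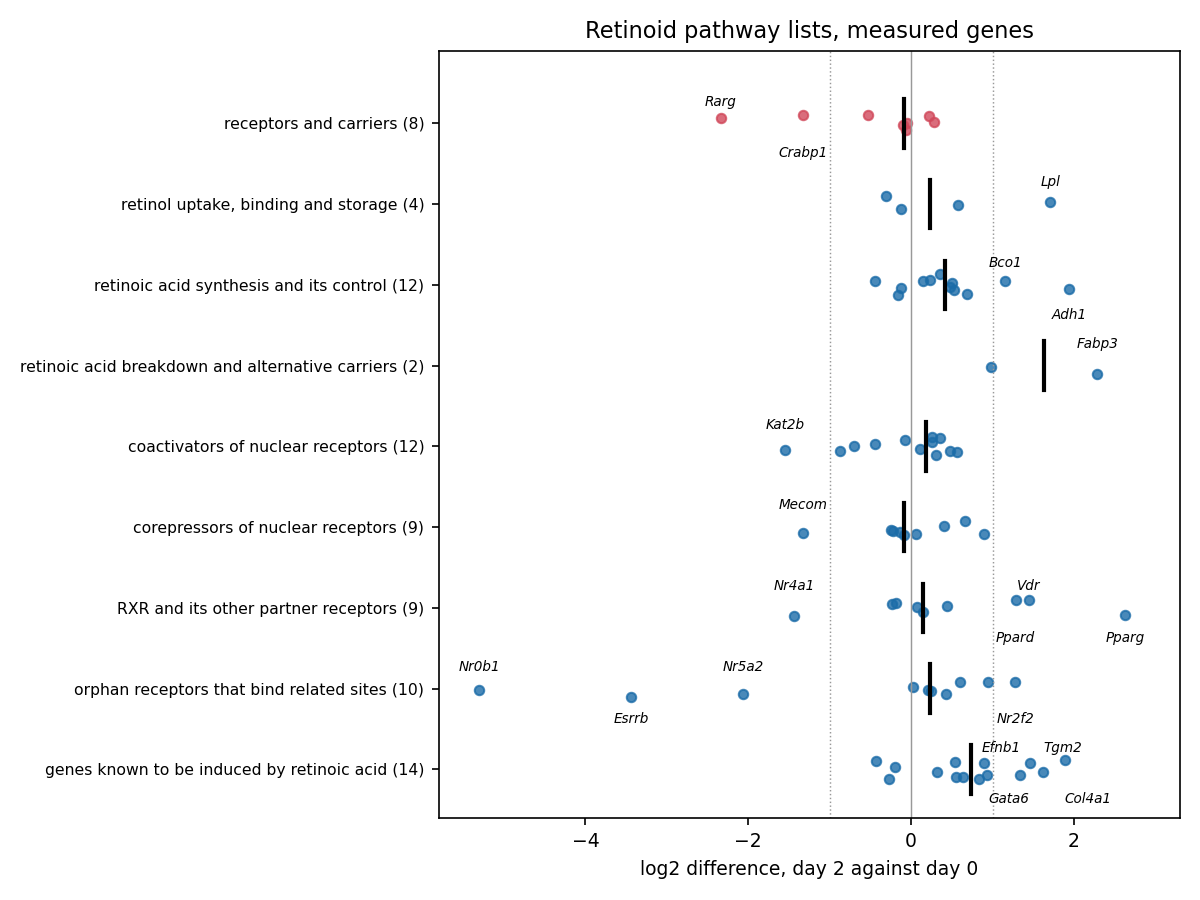
Log2 difference for day 2 against day 0 of the measured genes of each list, 1 point per gene, with the number measured in brackets, a black bar at the list's median, dotted lines at 2-fold and the names of genes past it. Receptors and carriers, red, spread to the left through Rarg (−2.34) and Crabp1 (−1.32), while retinoic acid induced genes have 4 of 14 past 2-fold on the right.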

How the data were processed

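Total RNA was measured on 3 arrays, 1 for each day. The deposited intensities were made by the authors with MAS5, per the submitters' processing notes, which name no version. The intensities are linear and the arrays share a 2% trimmed mean of 498. The day 2 column also lists 64 control probe sets, left out here, and whether that array was processed apart is unknown. Arrays were scaled to that trimmed mean, and the constant of 55.9 is the 40th percentile of all signals. Probe sets were named from the platform annotation, and 26925 of 45037 (59.8%) had a mean signal at or above the constant. No p-value or interval is possible, and the number of arrays limits the precision.

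Named besides the members were Pou5f1, up to 4 genes of each list with the largest day 2 difference, all others past 2-fold, and the 2 genes nearest to each member past 2-fold; others are named for their role or because their probe sets fall on both sides of 2-fold. Members and lists were chosen with earlier results of these data known. The step that computes differences was tested on simulated data. Promoter windows came from RefSeq (GRCm38.p6). There were 10 alternative settings of constant, scaling, filter and probe set choice. Python 3.11.15, numpy and pandas were used.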

Additional observations from a re-analysis of the deposited data

How the results depend on the processing

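Rarg was at least 2-fold lower for day 1 and for day 2 against day 0, and Crabp1 for day 2, in all settings that measured them, with ranges of −2.44 to −2.13, −2.77 to −2.19 and −1.64 to −1.05. With the _x_at, _s_at and _a_at probe sets left out neither gene is measured, so that 0 members were lower by 2-fold at day 2 and 0 at day 1, and Rxra, then given by its other probe set, made 1 member at least 2-fold higher at day 2. With the constant halved or set to 16, Cyp26a1 made 1 member at least 2-fold higher at day 1. Rxra ranged from −0.17 to 1.19 for day 2 against day 0, and its sign also turned with the mean over probe sets (0.57). Of the other main counts and medians of the members none moved by more than 1.5 times or the probe-set SD. Rarb entered only without the filter. With ribosomal scaling the 71 other genes of the lists still had 12 at least 2-fold higher and 6 lower at day 2. No paired analysis was possible because each day has 1 array. With 1 array per day, no array could be left out.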

Other observations

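Dhrs3 and Cyp26a1, both known to be induced by retinoic acid and both limiting its level, had their highest signal at day 1. Dhrs3 gave 11.8 at day 0, 75.9 at day 1 and 8.6 at day 2, and its mean signal was below the constant, so it is not among the measured genes. Rarb had no such peak, with 39.2 at day 1 and 44.0 at day 2. Cyp26b1, the relative of Cyp26a1 and also listed as induced by retinoic acid, had none either. It gave 17.9 at day 0, 17.3 at day 1 and 59.6 at day 2, and its mean signal was below the constant. The dim genes Hoxb2 (8.0, 56.7 and 10.7 at day 0, day 1 and day 2) and Aldh1a3 (13.4, 67.0 and 13.5) were also highest at day 1, while Hoxb1 (49.9, 5.8 and 29.1) was lowest there. The median signal of the whole array was 83.5, 92.5 and 87.6 in the order of the days, and its part in these dim values was not tested.

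Besides Cyp26a1 and Rarb, 9 other genes with the repeat spaced by 5 bases in their promoter window have a probe set, and 3 of these were measured. Syndig1, a gene of synapse differentiation, was at least 2-fold lower at day 2 than at day 0 (191.1, 121.7 and 16 at day 0, day 1 and day 2, a difference of −1.78), Blvrb was at 0.45 and Tnfsf13b at −0.21. None of the 4 measured genes with the repeat, Cyp26a1 included, was at least 2-fold higher at either day. Of all measured genes 2.4% were at day 1 and 5.25% at day 2, so nothing is read from this count. With the constant halved or set to 16, Cyp26a1 passed 2-fold at day 1.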
